A study of Homo sapiens with 15 samples.

Results

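Carriers that move copper, organic cations or anions across membranes also handle platinum drugs, and 10 genes for such carriers were described here in platinum-sensitive and platinum-resistant cultures of OVCAR4, a cell line long used as a model of high-grade serous carcinoma of the ovary. The genes were chosen by symbol: the copper transporters SLC31A1 and SLC31A2, the copper-exporting ATPases ATP7A and ATP7B, the copper chaperone ATOX1, the organic cation carriers SLC47A1 and SLC22A3, and the volume-regulated anion channel subunits LRRC8A, LRRC8C and LRRC8D. Of these 10, 9 were among the 16604 genes of the deposited table, matched by Ensembl identifier. SLC22A3 was not analysed here. All 9 passed whatever limit on low values the authors applied, and no further limit was set.

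Poly(A)-selected RNA of 15 cultures was sequenced, 3 biological replicates from each of 5 lines. Ovcar4Parental was the line sensitive to carboplatin and cisplatin, and no drug exposure is recorded for it. Ov4Cis and Ov4Carbo were made from OVCAR4 by growth in rising cisplatin or carboplatin, to an IC50 (a dose that inhibits growth by a set share) between 2 and 10 times higher. Ov4Carbo4 and Ov4Carbo7 were each grown out from 1 cell of Ov4Carbo, so each is 1 clone, and both are labelled carboplatin resistant. All 5 lines were kept in DMEM with 10% serum and antibiotics, and whether drug was present at harvest is not given in the sources used here. Each resistant population stands for 1 selection, so differences between lines carry no replication of the selection itself.

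Values are log2 RPKM (reads scaled to gene length and library size) after the authors' normalization, and differences are in log2 units, where 1 unit is a 2-fold change. Means are given ± SD over 3 cultures. A gene is said to have risen or fallen where limma's Benjamini-Hochberg adjusted p over all 16604 genes was under 0.05. Numbers in parentheses after a difference are such adjusted p-values unless named otherwise. In bulk libraries such as these, a change in the share of cells that express a gene and a change in its RNA per cell cannot be told apart.

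The numbers in the sample titles form 2 separate series, which the labels do not explain. The first holds all cultures of Ov4Carbo4 and Ov4Carbo7 and replicate 1 of Ov4Carbo, and the second holds the other 8. Replicate 1 of Ov4Carbo lay apart from replicates 2 and 3 in several carriers, so values without it, within a series, or with a series term are given beside the results they touch. That term rests on the 3 Ov4Carbo cultures alone. For Ov4Carbo4 and Ov4Carbo7 against Ovcar4Parental no within-series value exists, and clone and title series cannot be told apart except through that term. Among 10 markers of serous epithelium, PAX8 lay between 5.66 and 6.87 in all 15 cultures and WT1 was below 0 in all 15. Mean levels were above 0 for 9 of the 10 markers in Ovcar4Parental and for 4 of 10 in Ov4Cis, in which KRT7, KRT19, CDH1, CLDN4 and MUC16 were also below 0. The summed level of the 10 was 850 to 999 RPKM in Ovcar4Parental, 158 to 190 in Ov4Cis and 334 to 487 in the other lines. Of 9 markers of blood, vessel and stromal cells, VWF, COL1A1 and COL1A2 were analysed here, with a summed level of 5.0 to 15.3 RPKM. The part of these marker differences in the carrier results was not tested.

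Copper enters cells mainly through SLC31A1 (CTR1). SLC31A2 (CTR2) lies mostly on internal membranes, ATOX1 carries cuprous ions to the secretory pathway, and ATP7A and ATP7B pump copper into it and out of the cell. Cisplatin and carboplatin have been reported to bind or use parts of this route. SLC47A1 (MATE1) exports organic cations in exchange for protons. LRRC8A is the obligatory subunit of volume-regulated anion channels, whose LRRC8D-containing forms pass larger solutes and have been linked to platinum uptake.

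Each of the 9 carriers differed among the 5 lines by limma's moderated F-test, with adjusted p between 2.71e-05 for SLC47A1 and 0.00163 for LRRC8A. Of all genes, 76.9% did so. Against Ovcar4Parental, 7 carriers changed in Ov4Cis (5 rose and 2 fell), where 36.2% of all genes changed, 19.8% upward and 16.4% downward. In Ov4Carbo 2 changed, both upward, against a background of 34% (17.7% upward and 16.2% downward). In Ov4Carbo4 7 changed, of which 6 rose and 1 fell, against 39.7% of all genes (21.6% and 18%). In Ov4Carbo7 5 changed, of which 4 rose and 1 fell, against 42.6% (22.2% and 20.4%). The 3 cultures of a line lay wholly above or below those of Ovcar4Parental for 8 carriers in Ov4Cis (53.4% of all genes) and 2 in Ov4Carbo (38.4%). In the clones this held for 8 carriers of Ov4Carbo4 (58.1%) and 6 of Ov4Carbo7 (56.5%). The shares for Ov4Carbo and Ov4Carbo7 were below or near those backgrounds. The same 3 Ovcar4Parental cultures serve all 4 comparisons. SLC47A1 was the one carrier that rose in all 4 resistant lines, and no carrier fell in all 4. With the series term its rise in Ov4Carbo4 was 1.65 and did not pass (limma adjusted p = 0.0535). The share of all genes that rose or fell in all 4 lines was not worked out.

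Most of these changes were below 2-fold. A change of at least 1 log2 unit was reached by 3 carriers in Ov4Cis (background 15.9%), 1 in Ov4Carbo (12.7%), 3 in Ov4Carbo4 (15.1%) and 2 in Ov4Carbo7 (17%). The median difference of the 9 carriers was 0.48 for Ov4Cis and 0.07 for Ov4Carbo, beside 0.04 and 0.03 over all genes. For the clones Ov4Carbo4 and Ov4Carbo7 it was 0.78 and 0.41, beside 0.07 and 0.02. The plot of differences from Ovcar4Parental shows that the carriers that changed were not the same in each line.

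**Figure D1:**
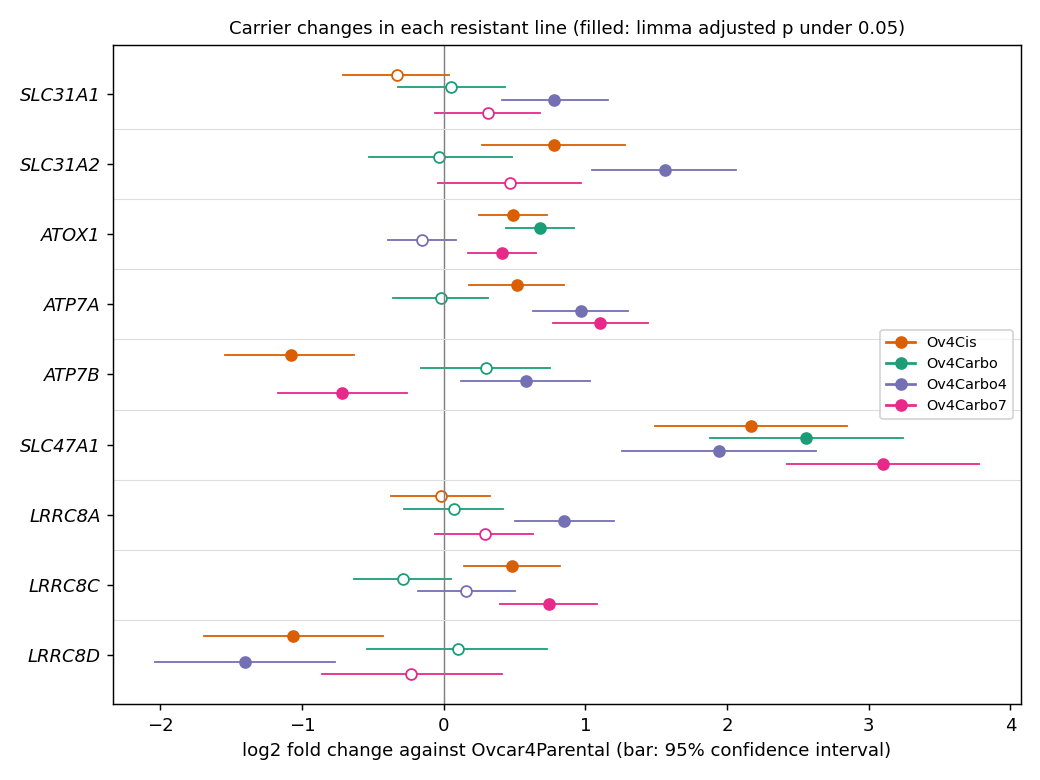
Log2 fold change of each carrier in each resistant line against Ovcar4Parental, with 95% confidence intervals, filled where limma's adjusted p was under 0.05. SLC47A1 lies to the right in all 4 lines, between 1.94 and 3.10, while LRRC8D lies to the left in Ov4Cis and Ov4Carbo4, at -1.06 and -1.40.

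The counts depended on single cultures and on the title series. Without replicate 1 of Ov4Cis, 4 carriers changed in that line, since ATP7A, LRRC8C and SLC31A2 no longer passed. Without replicate 1 of Ov4Carbo, or with the series term, 4 changed in Ov4Carbo, with LRRC8C and LRRC8D added. Neither LRRC8C (limma adjusted p = 0.0952) nor LRRC8D (0.0597) passed in Ov4Carbo within the second title series. With the series term 2 changed in Ov4Carbo4 (SLC31A2 and ATP7B) and 3 in Ov4Carbo7 (SLC47A1, ATOX1 and, upward, LRRC8D). The term also widened the errors, for SLC47A1 in Ov4Carbo4 from an SE of 0.31 to 0.58. The share of all genes that changed was not worked out for these settings, so these counts have no background beside them.

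The copper importer SLC31A1 (ENSG00000136868, chromosome 9) was highest in Ov4Carbo4. It measured 3.77, 3.62 and 3.62 in the Ovcar4Parental cultures and 4.48, 4.51 and 4.38 in Ov4Carbo4. The values were 3.39, 3.35 and 3.27 in Ov4Cis, 3.66, 3.35 and 4.16 in Ov4Carbo, and 3.73, 4.11 and 4.10 in Ov4Carbo7. The 3 Ov4Carbo4 cultures lay above all 12 others, Ov4Cis lay below Ovcar4Parental, and Ov4Carbo spanned the Ovcar4Parental range. In RPKM the mean was 12.8 ± 0.794 (SD, n = 3) in Ovcar4Parental and 22.0 ± 1.01 (SD, n = 3) in Ov4Carbo4. SLC31A1 rose in Ov4Carbo4 by 0.78 (SE 0.17, limma adjusted p = 0.0031), a 1.72-fold difference, and the value with the series term was 0.88 (adjusted p = 0.0605). The lower level in Ov4Cis, -0.33, did not pass (adjusted p = 0.152), but it did when only these 2 lines were fitted (0.0302) and without replicate 3 of Ov4Carbo (0.0473).

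SLC31A2 (ENSG00000136867, chromosome 9), the neighbouring gene for the second copper transporter, was low in every line and highest in the same clone. Its values were -1.14, -0.96 and -2.07 in Ovcar4Parental, -0.40, -0.80 and -0.65 in Ov4Cis, and -1.31, -1.59 and -1.36 in Ov4Carbo. Ov4Carbo4 gave 0.09, 0.28 and 0.13, and Ov4Carbo7 gave -0.99, -1.07 and -0.71. The 3 Ov4Carbo4 cultures were the only ones above 0, and those of Ov4Carbo7 overlapped with Ovcar4Parental. SLC31A2 rose by 1.56 in Ov4Carbo4 (SE 0.23, limma adjusted p = 0.00021), a 2.94-fold difference, and by 1.40 with the series term (adjusted p = 0.0319). It rose by 0.78 in Ov4Cis (adjusted p = 0.0191), a call lost within the second title series (0.0754) and without replicate 1 of Ov4Cis (0.0722). The same call was lost when only Ov4Cis and Ovcar4Parental were fitted (0.0942). In Ov4Carbo7 the difference was 0.47 (0.124), and 0.68 (0.0391) without replicate 2 of Ovcar4Parental. On log2(RPKM + 1), which compresses low values, the rises were 0.60 in Ov4Carbo4 (7.66e-05) and 0.25 in Ov4Cis (0.0364). Taken per length, SLC31A1 was 33.4-fold above SLC31A2 in Ovcar4Parental and 19.6-fold above it in Ov4Carbo4. These ratios are uncertain, since most exon bases of SLC31A2 overlap FKBP15, as given next.

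FKBP15 lies between SLC31A2 and SLC31A1 in the tested order. Of the 2504 exon bases of SLC31A2 in GENCODE v29, 1579 (63.1%) overlap FKBP15 exons on the opposite strand. Whether reads were counted by strand is not given in the sources used here, so reads from the 2 genes cannot be told apart. FKBP15 rose by 0.69 in Ov4Carbo4 (limma adjusted p = 0.000216) and differed by 0.27 in Ov4Cis (adjusted p = 0.06). PRPF4 rose in Ov4Carbo4 by 0.56 (adjusted p = 0.00731). With SLC31A2 and FKBP15, which are not separate measures for the reason given, 3 of the 4 genes nearest to SLC31A1 rose in Ov4Carbo4. Of all genes, 21.6% rose in that line. FKBP15 and PRPF4 differed there, with the series term, by 0.35 (0.0931) and 0.11 (0.722), and neither passed.

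ATOX1 (ENSG00000177556, chromosome 5), the chaperone that hands copper to both ATPases, rose in 3 of the 4 resistant lines and not in Ov4Carbo4. Ovcar4Parental measured 4.35, 4.36 and 4.42, Ov4Cis 4.93, 4.78 and 4.90, and Ov4Carbo 4.91, 5.21 and 5.04. Ov4Carbo7 measured 4.98, 4.62 and 4.74, against 4.32, 4.14 and 4.20 in Ov4Carbo4. Every culture of Ov4Cis, Ov4Carbo and Ov4Carbo7 lay above every Ovcar4Parental culture, and all 3 of Ov4Carbo4 lay below. The difference was 0.49 in Ov4Cis (SE 0.11, limma adjusted p = 0.0037), 0.68 in Ov4Carbo (0.000614) and 0.41 in Ov4Carbo7 (0.0104). In Ov4Carbo4 it was -0.15 (0.305). Within the second title series the rises in Ov4Cis and Ov4Carbo were 0.49 (0.00899) and 0.75 (0.00405). With the series term the rise in Ov4Carbo7 was 0.62 (0.0315).

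**Figure D2:**
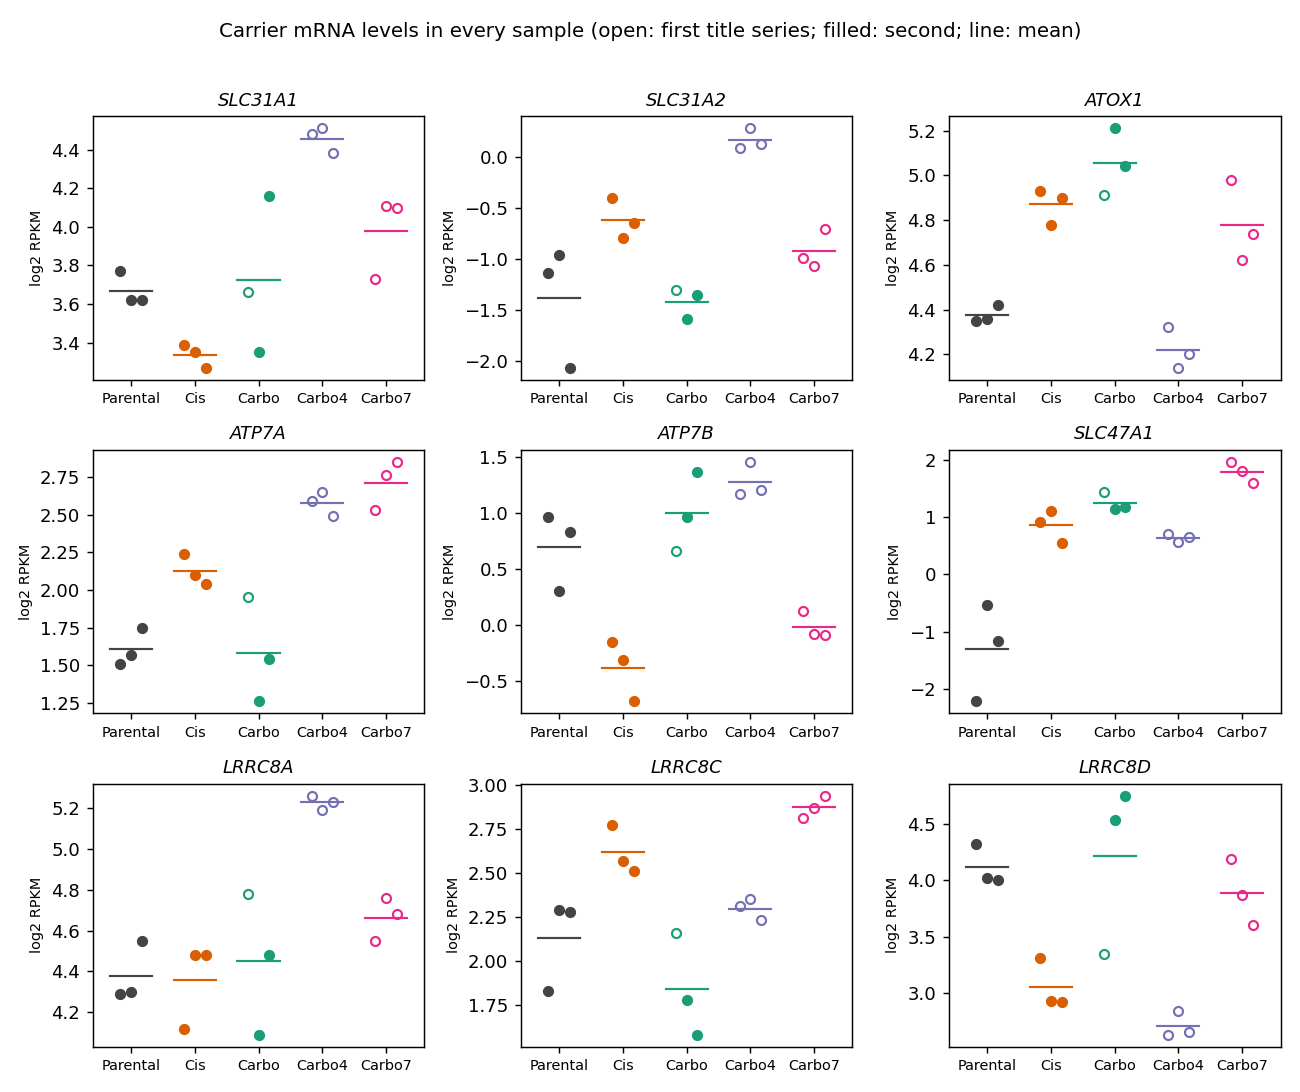
Log2 RPKM of 9 carriers in each culture of the 5 lines, with open points for the first title series, filled points for the second and a line at the mean of 3. For SLC31A1, SLC31A2 and LRRC8A the 3 Ov4Carbo4 cultures lie above all others, and for SLC47A1 the 3 Ovcar4Parental cultures lie below all others.

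The 2 copper-exporting ATPases moved in opposite directions in Ov4Cis and Ov4Carbo7. ATP7A rose and ATP7B fell in both lines, neither passed the test in Ov4Carbo, and both rose in Ov4Carbo4. With the series term neither passed in Ov4Carbo7 (limma adjusted p = 0.0731 for ATP7A and 0.689 for ATP7B), nor ATP7A in Ov4Carbo4 (0.163). The RefSeq sequence around their annotated starts (250 bases before to 50 after, build GRCh38.p14) is shown because these 2 related genes diverged. It covers chrX:77910443-77910742 on the plus strand for ATP7A and, for the first of 3 listed starts of ATP7B, chr13:52012083-52012382 on the minus strand. Both are written 5′ to 3′, with capitals for GC boxes (GGGCGG on either strand) and for the core of the metal response element (TGCGCNC or TGCACNC on either strand). No match of one motif overlapped a match of the other.
ATP7A: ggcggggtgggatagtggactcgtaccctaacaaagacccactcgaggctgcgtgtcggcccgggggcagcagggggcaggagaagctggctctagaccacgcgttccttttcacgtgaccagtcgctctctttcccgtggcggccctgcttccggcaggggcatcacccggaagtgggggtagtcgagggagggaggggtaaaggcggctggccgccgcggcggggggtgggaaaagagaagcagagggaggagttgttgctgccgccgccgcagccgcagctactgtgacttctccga
ATP7B: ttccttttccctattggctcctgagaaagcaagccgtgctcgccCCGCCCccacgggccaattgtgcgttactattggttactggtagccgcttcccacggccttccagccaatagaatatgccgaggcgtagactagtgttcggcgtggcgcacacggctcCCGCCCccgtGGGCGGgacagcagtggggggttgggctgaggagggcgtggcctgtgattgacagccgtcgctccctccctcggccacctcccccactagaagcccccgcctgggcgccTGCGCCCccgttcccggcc
The ATP7A window held 0 GC boxes and 0 metal cores, and the ATP7B window held 3 GC boxes and 1 metal core. Windows at the other starts of ATP7B held 3 GC boxes and 2 metal cores (the second) and 0 of each (the third). Of 35116 RefSeq promoter windows of this length, 45% held a GC box and 29.6% a metal core. A match describes letters only, and binding was not measured.

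ATP7A (ENSG00000165240, chromosome X), the ATPase found in most tissues, was higher in 3 of the 4 resistant lines. Its values were 1.51, 1.57 and 1.75 in Ovcar4Parental, 2.24, 2.10 and 2.04 in Ov4Cis, and 1.95, 1.26 and 1.54 in Ov4Carbo. Ov4Carbo4 gave 2.59, 2.65 and 2.49, and Ov4Carbo7 gave 2.53, 2.76 and 2.85. Both clones lay above all 9 cultures of the other lines, and the 2 clones overlapped with each other. ATP7A rose by 0.52 in Ov4Cis (SE 0.15, limma adjusted p = 0.0191), 0.97 in Ov4Carbo4 (0.000357) and 1.10 in Ov4Carbo7 (0.000111). In Ov4Carbo the difference was -0.02 (0.926). Replicate 1 of Ov4Carbo, the culture of the first title series, was the highest of its line. With the series term the differences were 0.41 in Ov4Carbo4 (0.163) and 0.55 in Ov4Carbo7 (0.0731). The Ov4Cis rise stood within the second title series (0.0181) and was lost without replicate 1 or 2 of Ovcar4Parental (0.0636 and 0.0569) or replicate 1 of Ov4Cis (0.0671).

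ATP7B (ENSG00000123191, chromosome 13), which is best known from liver, was lowest in Ov4Cis. Ovcar4Parental gave 0.97, 0.31 and 0.83, Ov4Cis -0.15, -0.31 and -0.68, and Ov4Carbo 0.66, 0.97 and 1.37. Ov4Carbo4 gave 1.17, 1.46 and 1.21, and Ov4Carbo7 gave 0.13, -0.08 and -0.09. All Ov4Cis and Ov4Carbo7 cultures lay below all Ovcar4Parental cultures, while Ov4Carbo overlapped with them and with Ov4Carbo4. ATP7B fell by 1.08 in Ov4Cis (SE 0.21, limma adjusted p = 0.00136), a 2.12-fold difference that also passed within the second title series (0.00939). It fell by 0.72 in Ov4Carbo7 (0.0151), where the value with the series term was -0.21 (0.689) and the call was lost without replicate 1 (0.0611) or replicate 3 (0.0527) of Ovcar4Parental. The rise in Ov4Carbo4 was 0.58 (0.0437). That call was near the threshold: it was lost without replicate 2 (0.38, 0.185) or 3 (0.0589) of Ovcar4Parental and without any 1 of the Ov4Carbo4 cultures (0.0655, 0.141 and 0.0768). It was also lost without replicate 2 of Ov4Cis (0.0554) or any 1 Ov4Carbo7 culture (0.0515, 0.0559 and 0.0554), which enter only the shared spread. With the series term the value was 1.09 (0.0364). On the log2(RPKM + 1) scale the ATP7B differences were -0.57 in Ov4Cis and -0.41 in Ov4Carbo7, and both still passed (0.00269 and 0.0192).

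The ratio of the 2 ATPases therefore differed by line. ATP7A exceeded ATP7B by 0.91 ± 0.36 log2 units in Ovcar4Parental (SD, n = 3), or 1.87-fold. The difference was 2.51 ± 0.19 in Ov4Cis (5.68-fold) and 2.73 ± 0.28 in Ov4Carbo7 (6.63-fold). It was 0.58 ± 0.62 in Ov4Carbo and 1.29 ± 0.12 in Ov4Carbo4. The lowest culture of Ov4Cis or Ov4Carbo7, at 2.39, stood above the highest of the other 3 lines, at 1.42. Within Ov4Carbo the first replicate was at 1.29 and the others at 0.29 and 0.17. Among the 4 nearest genes on each chromosome, WDFY2, ALG11 and UTP14C fell with ATP7B in Ov4Cis, by 0.63, 0.77 and 0.62 (limma adjusted p = 0.0185, 0.00268 and 5.4e-05). Of all genes, 16.4% fell in Ov4Cis. None of the 4 genes nearest to ATP7A passed the test in Ov4Cis or Ov4Carbo4, and PGK1 and PGAM4 rose with it in Ov4Carbo7, where neither passed with the series term (adjusted p = 0.111 and 0.421).

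**Figure D3:**
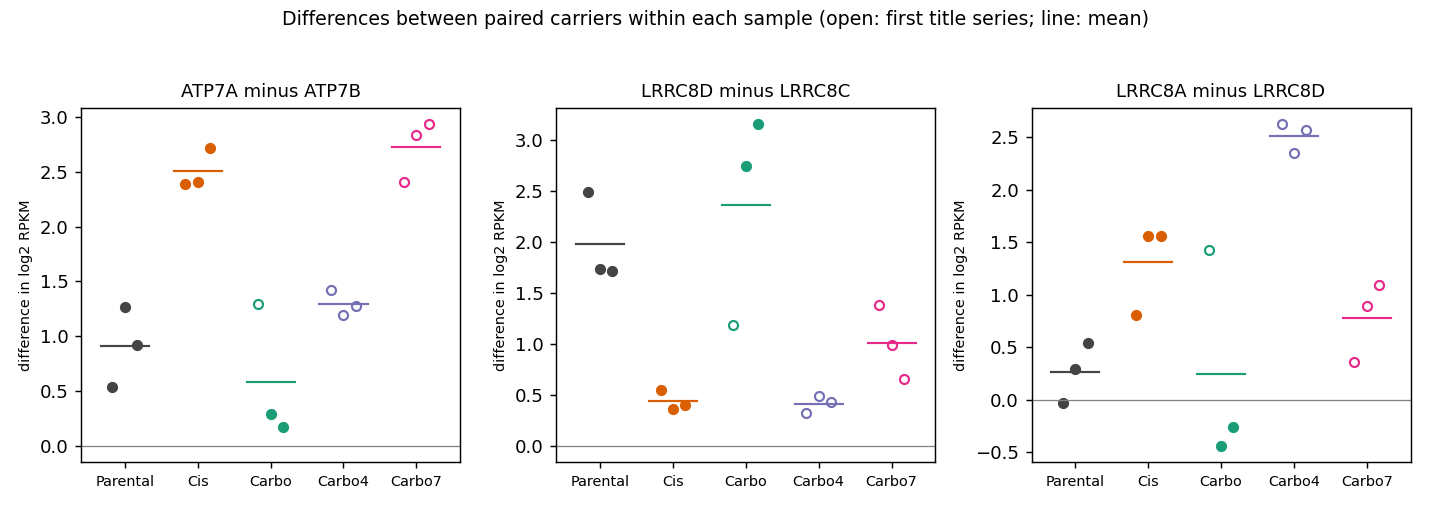
Difference in log2 RPKM between paired carriers within each culture, by line, with open points for the first title series and a line at the mean. ATP7A minus ATP7B is above 2.3 in all cultures of Ov4Cis and Ov4Carbo7, and LRRC8A minus LRRC8D is above 2.3 in all cultures of Ov4Carbo4.

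SLC47A1 (ENSG00000142494, chromosome 17), the proton-coupled exporter of organic cations, showed the largest rise of the 9 carriers in each resistant line with all cultures fitted. The Ovcar4Parental cultures gave -2.22, -0.54 and -1.16. Ov4Cis gave 0.92, 1.11 and 0.55, and Ov4Carbo 1.45, 1.14 and 1.18. Ov4Carbo4 gave 0.70, 0.57 and 0.65, and Ov4Carbo7 1.97, 1.82 and 1.60. Every one of the 12 resistant cultures lay above every Ovcar4Parental culture. The share of all genes in which 1 line is separated from all the others was not worked out, for SLC47A1 or for other carriers. In RPKM the mean was 0.45 ± 0.236 (SD, n = 3) in Ovcar4Parental, 1.84 ± 0.351 in Ov4Cis and 2.40 ± 0.292 in Ov4Carbo. The clones had means of 1.56 ± 0.0714 (Ov4Carbo4) and 3.49 ± 0.439 (Ov4Carbo7).

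The rise of SLC47A1 was 2.17 in Ov4Cis (SE 0.31, limma adjusted p = 0.000155) and 2.56 in Ov4Carbo (7.61e-05). It was 1.94 in Ov4Carbo4 (0.000382) and 3.10 in Ov4Carbo7 (8.73e-06). Folds ran from 3.85 in Ov4Carbo4 to 8.58 in Ov4Carbo7. Within the second title series the rises were 2.17 in Ov4Cis (0.00505) and 2.46 in Ov4Carbo (0.00721). With the series term they were 1.65 in Ov4Carbo4 (0.0535) and 2.81 in Ov4Carbo7 (0.00576). Levels were low throughout, with a mean over the 15 cultures at the 24.1 percentile of all genes, and the size depends on the scale. On log2(RPKM + 1) the 4 rises were 0.98, 1.24, 0.83 and 1.64, all past the test (largest adjusted p = 0.000128). Leaving out Ovcar4Parental replicate 1, its lowest culture, gave 1.71, 2.10, 1.49 and 2.64, again all past the test (largest adjusted p = 0.000219). In Ov4Carbo4 the rise of SLC31A2 was then larger, at 1.68, than that of SLC47A1 at 1.49.

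SLC47A2, the neighbouring paralogue, was far lower, at -4.59 in Ovcar4Parental. It rose by 2.71 in Ov4Cis (limma adjusted p = 0.0012), 1.70 in Ov4Carbo4 (0.0199) and 2.74 in Ov4Carbo7 (0.00101), and differed by 0.81 in Ov4Carbo (0.248). For SLC47A2 the series term gave 3.19 in Ov4Carbo4 (0.0133) and 4.23 in Ov4Carbo7 (0.00387), and the Ov4Carbo difference within the second series was 1.30 (0.0304). The level stayed below 0 in all 15 cultures, and how the authors' counting divided reads between the 2 genes is not given in the sources used here.

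The LRRC8 subunits did not move together. LRRC8D fell in Ov4Cis and Ov4Carbo4, LRRC8C rose in Ov4Cis and Ov4Carbo7, and LRRC8A rose in Ov4Carbo4. With the series term these changes did not pass in the clones (limma adjusted p = 0.805 for LRRC8D, 0.431 for LRRC8C and 0.302 for LRRC8A). The rise of LRRC8C in Ov4Cis did not pass within the second title series (0.0556). LRRC8C and LRRC8D lie near each other on chromosome 1, with LRRC8D-DT between them in the tested order, and the RefSeq windows of both (GRCh38.p14, plus strand, 5′ to 3′) are shown because they changed in opposite directions in Ov4Cis. They cover chr1:89632870-89633169 for LRRC8C and chr1:89820782-89821081 for the first of 2 listed starts of LRRC8D, with capitals for the same motifs as above.
LRRC8C: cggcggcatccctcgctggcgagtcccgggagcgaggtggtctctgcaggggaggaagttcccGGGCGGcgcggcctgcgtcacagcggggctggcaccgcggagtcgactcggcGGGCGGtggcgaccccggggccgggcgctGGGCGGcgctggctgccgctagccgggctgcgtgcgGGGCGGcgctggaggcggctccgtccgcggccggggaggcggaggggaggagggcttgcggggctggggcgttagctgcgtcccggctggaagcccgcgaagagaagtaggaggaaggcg
LRRC8D: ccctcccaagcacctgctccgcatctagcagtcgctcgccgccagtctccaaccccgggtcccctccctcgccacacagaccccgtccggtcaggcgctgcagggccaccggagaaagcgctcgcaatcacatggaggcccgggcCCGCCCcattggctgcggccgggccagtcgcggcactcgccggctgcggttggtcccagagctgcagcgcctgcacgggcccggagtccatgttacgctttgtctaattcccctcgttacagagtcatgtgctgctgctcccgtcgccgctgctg
The LRRC8C window held 4 GC boxes and the LRRC8D window 1, neither held a metal core, and G and C made up 78% and 69% of the bases. The window at the second listed start of LRRC8D held 3 GC boxes and 1 metal core.

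LRRC8A (ENSG00000136802, chromosome 9), the subunit every channel needs, was among the more abundant carriers. Its values were 4.29, 4.30 and 4.55 in Ovcar4Parental, 4.12, 4.48 and 4.48 in Ov4Cis, and 4.78, 4.09 and 4.48 in Ov4Carbo. Ov4Carbo4 gave 5.26, 5.19 and 5.23, and Ov4Carbo7 gave 4.55, 4.76 and 4.68. Ov4Carbo4 lay above every other culture, and Ov4Cis and Ov4Carbo overlapped with Ovcar4Parental. LRRC8A rose in Ov4Carbo4 by 0.85 (SE 0.16, limma adjusted p = 0.00119), a 1.80-fold difference, and the value with the series term was 0.35 (0.302). The differences in Ov4Cis, Ov4Carbo and Ov4Carbo7 were -0.02, 0.07 and 0.29 (adjusted p = 0.94, 0.76 and 0.174). Of the 4 nearest genes, SPOUT1, PHYHD1 and DOLK also rose in Ov4Carbo4, by 0.57, 1.34 and 0.86 (0.00527, 0.00129 and 0.00091), and KYAT1 differed by 0.73 (0.0626). Of all genes, 21.6% rose in Ov4Carbo4. PHYHD1 rose there, with the series term, by 2.15 (0.00194) and KYAT1 by 1.89 (0.0027), while SPOUT1 at 0.40 (0.243) and DOLK at 0.32 (0.303) did not pass.

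LRRC8D (ENSG00000171492, chromosome 1), the subunit tied to platinum passage, fell in Ov4Cis and Ov4Carbo4. The Ovcar4Parental cultures gave 4.32, 4.02 and 4.0, Ov4Cis 3.31, 2.93 and 2.92, and Ov4Carbo4 2.63, 2.84 and 2.66. Ov4Carbo gave 3.35, 4.53 and 4.75, and Ov4Carbo7 4.19, 3.87 and 3.60. Ov4Cis and Ov4Carbo4 lay below all Ovcar4Parental cultures, while Ov4Carbo split, with replicate 1 near Ov4Cis and replicates 2 and 3 above all Ovcar4Parental cultures. LRRC8D fell by 1.06 in Ov4Cis (SE 0.29, limma adjusted p = 0.0126), a 2.08-fold difference, and by the same amount within the second title series (0.00211). It fell by 1.40 in Ov4Carbo4 (0.00225), a 2.64-fold difference.

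Other LRRC8D results rested on the title series or on replicate 1 of Ov4Carbo. With the series term the difference in Ov4Carbo4 was -0.12 (limma adjusted p = 0.805). In Ov4Carbo7 it was -0.23 (0.564) without the term and 1.06 (0.0234) with it, the opposite direction. In Ov4Carbo it was 0.10 (0.826) with all 3 cultures and 0.53 (0.0401) without replicate 1. Within the second title series the Ov4Carbo value was also 0.53 but did not pass (0.0597).

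LRRC8C (ENSG00000171488, chromosome 1), whose channels differ from LRRC8D channels in what they pass, was highest in Ov4Carbo7. Its values were 1.83, 2.29 and 2.28 in Ovcar4Parental, 2.77, 2.57 and 2.51 in Ov4Cis, and 2.16, 1.78 and 1.58 in Ov4Carbo. Ov4Carbo4 gave 2.31, 2.35 and 2.23, and Ov4Carbo7 gave 2.81, 2.87 and 2.94. Ov4Cis and Ov4Carbo7 lay above all Ovcar4Parental cultures, and Ov4Carbo and Ov4Carbo4 overlapped with them. LRRC8C rose by 0.74 in Ov4Carbo7 (SE 0.16, limma adjusted p = 0.00215), and the value with the series term was 0.26 (0.431). It rose by 0.48 in Ov4Cis (0.0285), a call lost within the second title series (0.0556), without replicate 1 of Ovcar4Parental (0.33, 0.121) and without replicate 1 (0.41, 0.101) or replicate 2 (0.0545) of Ov4Cis. Fitting only Ov4Cis and Ovcar4Parental also lost that call (0.0587). In Ov4Carbo the difference was -0.29 (0.168), and -0.45 without its replicate 1 (0.0269) or replicate 1 of Ovcar4Parental (0.0413). Within the second title series the Ov4Carbo value was also -0.45 but did not pass (0.0952).

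Per length, LRRC8D exceeded LRRC8C by 1.98 ± 0.44 log2 units in Ovcar4Parental (SD, n = 3), or 3.94-fold. The excess was 0.44 ± 0.10 in Ov4Cis and 0.41 ± 0.08 in Ov4Carbo4, 1.35-fold and 1.33-fold. Ov4Carbo7 was between, at 1.01 ± 0.36, and the Ov4Carbo cultures were spread at 1.19, 2.75 and 3.16. LRRC8A exceeded LRRC8D by 0.27 ± 0.29 in Ovcar4Parental, 1.31 ± 0.43 in Ov4Cis and 2.52 ± 0.14 in Ov4Carbo4, the last a 5.73-fold ratio. No culture of Ov4Cis or Ov4Carbo4 overlapped with Ovcar4Parental in either ratio. In Ov4Carbo, LRRC8A exceeded LRRC8D by 1.43 in replicate 1 and lay 0.44 and 0.26 below it in the others (-0.44 and -0.26).

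The other 2 subunits of the family were lower in most resistant lines. LRRC8B, also on chromosome 1 and the gene next to LRRC8C in the tested order, fell in all 4 lines, by 0.62 in Ov4Cis, 0.43 in Ov4Carbo, and 0.99 and 0.50 in Ov4Carbo4 and Ov4Carbo7. Limma's adjusted p-values were 0.00018, 0.00358, 4.96e-06 and 0.000808. LRRC8E fell by 0.76, 0.52 and 0.47 in the first 3 (0.000358, 0.00626 and 0.00844) and differed by 0.16 in Ov4Carbo7 (0.336). LRRC8B did not pass with the series term in Ov4Carbo7 (-0.42, 0.0803), nor LRRC8E in Ov4Carbo4 (-0.44, 0.17), and LRRC8E did not pass in Ov4Carbo within the second series (0.0525). In Ov4Cis, LRRC8C rose where its neighbours did not: all 4 nearest genes fell, namely GBP5 by 2.24, LRRC8B by 0.62, LRRC8D-DT by 1.48 and LRRC8D by 1.06 (adjusted p = 0.000559, 0.00018, 0.00238 and 0.0126). Of all genes, 16.4% fell in Ov4Cis and 18% in Ov4Carbo4. In Ov4Carbo4 the same 4 genes fell, while LRRC8C differed by 0.16 (0.442). GBP5 at -4.69 and LRRC8B at -0.91 still passed there with the series term (4.27e-05 and 0.0021), and LRRC8D-DT (-0.66, 0.404) and LRRC8D did not.

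**Figure D4:**
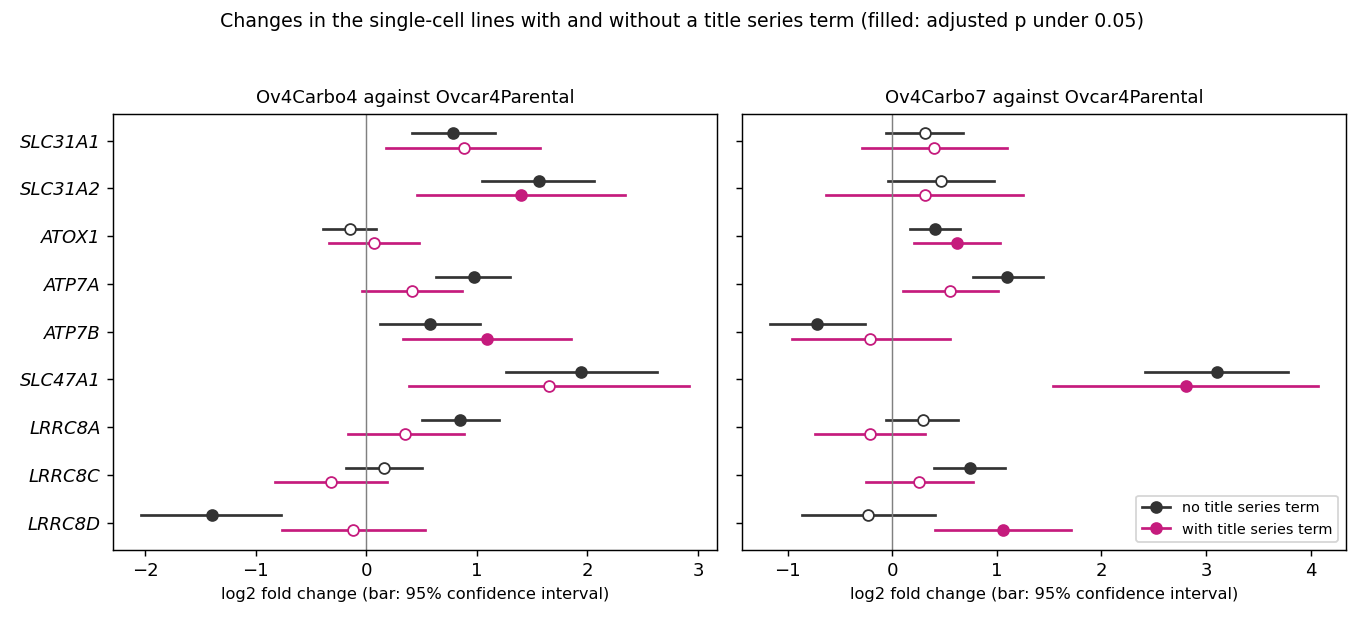
Log2 fold change of each carrier in Ov4Carbo4 and Ov4Carbo7 against Ovcar4Parental, without (black) and with (magenta) a title series term, with 95% confidence intervals, filled where limma's adjusted p was under 0.05. SLC47A1 stays to the right of 1 under both, while LRRC8D moves from -1.40 to -0.12 in Ov4Carbo4 and from -0.23 to 1.06 in Ov4Carbo7.

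The clones were also compared with Ov4Carbo, their population of origin. Against Ov4Carbo, 7 carriers changed in Ov4Carbo4, of which 5 rose and 2 fell, where 42.2% of all genes changed (23.1% upward and 19.2% downward). In Ov4Carbo7 3 changed, of which 2 rose and 1 fell, where 36.6% of all genes changed (18.5% and 18.2%). Cultures did not overlap with Ov4Carbo for 8 carriers in Ov4Carbo4 (background 49.6%) and 5 in Ov4Carbo7 (42.3%). Changes of at least 1 log2 unit were found for 2 carriers in Ov4Carbo4 (14.2%) and 3 in Ov4Carbo7 (13.3%). ATP7A rose in both clones, by 0.99 in Ov4Carbo4 (limma adjusted p = 0.000353) and 1.13 in Ov4Carbo7 (0.000176). Within the first title series, where 1 Ov4Carbo culture is assumed to vary like the clones, these rises were 0.62 (0.0268) and 0.76 (0.0188), and with the series term the adjusted p-values were 0.0156 and 0.00903.

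In Ov4Carbo4, SLC31A1 rose by 0.73 over Ov4Carbo (limma adjusted p = 0.00493), SLC31A2 by 1.58 (0.000227) and LRRC8A by 0.78 (0.00233). ATOX1 fell by 0.83 (0.000117) and LRRC8D by 1.50 (0.00158). Within the first title series, which holds 1 Ov4Carbo culture, SLC31A1 differed by 0.79, SLC31A2 by 1.48, LRRC8A by 0.44 and ATOX1 by -0.68. LRRC8D differed there by -0.64, SLC47A1 by -0.81 and ATP7B by 0.62. The series term gave the same differences, with SLC31A1 (0.035), SLC31A2 (0.00746) and ATOX1 (0.00538) past the test and LRRC8A (0.1), LRRC8D (0.0609) and LRRC8C (0.63) not. SLC47A1 (0.211) and ATP7B (0.111) did not pass with it. The rise of LRRC8C over Ov4Carbo, 0.45 (0.0336), was 0.13 within the first series. That call was lost without replicate 2 (0.0822) or 3 (0.122) of Ov4Carbo or any 1 Ov4Carbo4 culture (0.0793, 0.0895 and 0.0589). When only these 2 lines were fitted, SLC31A1 (0.0514) and LRRC8C (0.1) did not pass. SLC47A1 did not pass with all cultures fitted (-0.61, 0.133). It fell on log2(RPKM + 1) (-0.4, 0.0187) and when only these 2 lines were fitted (0.0207).

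In Ov4Carbo7, LRRC8C rose by 1.03 over Ov4Carbo (limma adjusted p = 0.000329) and ATP7B fell by 1.02 (0.00259). Within the first title series the differences were 0.71 (0.0102) and -0.68 (0.0315). Those with the series term were the same, and LRRC8C passed (0.0199) but ATP7B did not (0.11). Without replicate 1 of Ov4Carbo, 5 carriers changed, with the added ATOX1 at -0.34 (0.0324) and LRRC8D at -0.75 (0.00673). Other single cultures each added 1 carrier: ATOX1 at -0.37 without replicate 1 of Ov4Carbo7 (0.0236), SLC31A1 at 0.48 without replicate 3 of Ov4Carbo (0.019), and SLC31A2 at 0.49 and SLC47A1 at 0.54 without replicates 3 and 1 of Ovcar4Parental (0.0153 and 0.0363).

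The direct comparison of Ov4Carbo7 with Ov4Carbo4 lies inside 1 title series and held the most carrier differences. Of the 9, 8 changed, 4 higher and 4 lower in Ov4Carbo7, where 51.1% of all genes changed (24% higher and 27.1% lower). For 4 the change was at least 1 log2 unit (background 20.9%). Higher in Ov4Carbo7 were LRRC8D by 1.17 (limma adjusted p = 0.00487), SLC47A1 by 1.16 (0.00824), LRRC8C by 0.58 (0.00775) and ATOX1 by 0.56 (0.00109). ATP7B was lower, at -1.30 (0.000244), as were SLC31A2 at -1.09 (0.00179), LRRC8A at -0.56 (0.0108) and SLC31A1 at -0.47 (0.0348). The 2 clones overlapped only in ATP7A, which differed by 0.14 (95% confidence interval from -0.20 to 0.47, adjusted p = 0.484), and the other 8 did not overlap (background 67.3%). The SLC31A1 call was lost without replicate 1 of Ov4Carbo7 (-0.35, 0.14) and without any 1 Ov4Carbo4 culture (0.0808, 0.0892 and 0.0565).

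Between the cisplatin-selected and carboplatin-selected populations, 5 carriers changed, 3 higher and 2 lower in Ov4Cis, where 34.2% of all genes changed (18.1% higher and 16.1% lower). Cultures of the 2 lines did not overlap for 6 carriers (background 41%), and 2 changed by at least 1 log2 unit (13.8%). ATP7B was lower in Ov4Cis than in Ov4Carbo by 1.38 log2 units (-1.38, limma adjusted p = 0.000309) and LRRC8D by 1.16 (-1.16, 0.00916). LRRC8C was higher by 0.77 (0.00232), SLC31A2 by 0.80 (0.0182) and ATP7A by 0.54 (0.0175). Without Ov4Carbo replicate 1, in the second title series alone, the values were -1.55 for ATP7B (0.00419), -1.58 for LRRC8D (0.000818), 0.93 for LRRC8C (0.00808) and 0.73 for ATP7A (0.00867). SLC31A2 differed by 0.86 (0.0777) there. Without replicate 1 of Ov4Cis the count was 3, with ATP7A (0.0566) and SLC31A2 (0.0623) lost. The same 2 were lost without replicate 2 of Ov4Carbo (0.0622 and 0.0598), where SLC31A1 was added at -0.58 (0.0148). Fitting only these 2 lines gave 3, with ATP7A (0.117) and LRRC8D (0.0842) lost. SLC47A1 and ATOX1, which rose in both populations against Ovcar4Parental, differed between them by -0.39 (0.359) and -0.18 (0.218).

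Of 34 other genes of copper handling, organic cation transport and the LRRC8 family, 28 were measured. Against Ovcar4Parental, 8 rose and 6 fell in Ov4Cis, and 7 rose and 3 fell in Ov4Carbo. Of the clones, Ov4Carbo4 had 4 that rose and 8 that fell, and Ov4Carbo7 had 8 that rose and 3 that fell. Set beside the backgrounds of 36.2%, 34%, 39.7% and 42.6%, these are counts of 14, 10, 12 and 11 of 28. Median differences were 0.12, 0.13, -0.07 and 0.15. Under the series term 8 rose and 4 fell in Ov4Carbo, 4 rose and 5 fell in Ov4Carbo4, and 7 rose and 2 fell in Ov4Carbo7. The share of all genes that changed under that term was not worked out.

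CP, which encodes the copper-carrying plasma ferroxidase ceruloplasmin, separated the 2 clones most widely. It measured 4.76, 4.77 and 4.93 in Ovcar4Parental, 7.26, 7.28 and 7.16 in Ov4Cis, and 6.02, 5.03 and 4.63 in Ov4Carbo. Ov4Carbo4 gave 1.22, 1.08 and 0.96, and Ov4Carbo7 7.38, 7.66 and 7.42. Ov4Cis and Ov4Carbo7 stood above all other cultures and Ov4Carbo4 below all others. CP rose by 2.41 in Ov4Cis (limma adjusted p = 1.2e-05) and 2.67 in Ov4Carbo7 (5.91e-06), and fell by 3.74 in Ov4Carbo4 (4.59e-07). Between the clones the difference was 6.40 (6.06e-09). Replicate 1 of Ov4Carbo was the highest of its line, and with the series term CP differed by 1.47 in Ov4Carbo7 (0.00115) and -4.93 in Ov4Carbo4 (4.03e-07).

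The metalloreductase gene STEAP2 rose in Ov4Cis, Ov4Carbo and Ov4Carbo7, by 2.74, 1.67 and 1.64 (limma adjusted p = 9.07e-07, 0.000116 and 7.11e-05). GLRX, for the glutaredoxin that acts on the copper-binding cysteines of the ATPases, rose in the same 3 lines by 1.76, 1.89 and 1.66 (3.52e-05, 3.91e-05 and 5.48e-05). Replicate 1 of Ov4Carbo was the highest of its line for both, at 1.92 against 1.26 and 1.59 for STEAP2 and at 2.39 against 2.33 and 2.08 for GLRX. The Ov4Carbo7 values of both with the series term are not given here. In Ov4Carbo4 GLRX rose by 0.68 (0.0221), a call lost with the series term (0.50, 0.367). STEAP3 was higher in Ov4Carbo7 than in Ov4Carbo by 1.11 (0.0108) and than in Ov4Carbo4 by 1.40 (0.00158). Its excess over Ov4Carbo was 0.41 with the series term (0.405) and within the first series (0.374), and did not pass in either. The monoamine and cation transporter SLC29A4 rose in Ov4Carbo by 1.09 (0.00487) and in Ov4Carbo4 by 1.00 (0.006), or 1.75 with the series term (0.00524). The SLC22 genes measured fell in some lines only, while SLC47A2 rose in Ov4Cis, Ov4Carbo4 and Ov4Carbo7, as given above. SLC22A5 (-1.17, 1.38e-06) and SLC22A15 (-0.80, 0.0125) fell in Ov4Cis. In Ov4Carbo4, without the series term, SLC22A15 (-0.68, 0.0258) and SLC22A4 (-1.14, 0.0153) fell. Replicate 1 of Ov4Carbo lay apart from replicates 2 and 3 in both. It gave 0.21 against 0.61 and 0.58 for SLC22A15, and -0.18 against -1.92 and -1.5 for SLC22A4. Values of these 2 genes with the series term are not given here.

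Several smaller changes were picked out after their values were seen. COX11, needed for copper insertion into cytochrome oxidase, rose in all 4 lines by 0.87, 0.78, 0.55 and 0.61 (limma adjusted p = 1.56e-05, 7.16e-05, 0.000586 and 0.000265). CCS, the copper chaperone of SOD1, fell in Ov4Carbo4 by 0.67 (0.000711). MTF1, the metal-responsive transcription factor, rose in Ov4Cis by 0.49 (0.00953) and in Ov4Carbo7 by 0.51 (0.00697). TMEM205, linked to cisplatin resistance, fell in Ov4Carbo4 by 0.69 (0.00204). COX11 and CCS still passed with the series term in these comparisons, while MTF1 in Ov4Carbo7 (0.10, 0.722) and TMEM205 in Ov4Carbo4 (-0.65, 0.0859) did not.

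For each carrier that changed by at least 1 log2 unit from Ovcar4Parental, the 2 genes with the most similar profile over the 15 cultures were taken from 11571 genes. Pearson's r describes these 15 values, which share 5 lines and 2 title series, and is given with no test. For SLC47A1 they were ZBTB17 (r = 0.953) and METAP1D (0.948), for ATP7A HIF1AN (0.958) and SFXN3 (0.951), and for ATP7B PIBF1 (0.952) and GLIS2 (0.948). For LRRC8D they were RFXANK (0.966) and IGF2BP2 (0.94), and for SLC31A2 ATP2A3 and MYRF (both 0.915). RFXANK averaged 5.55 in Ovcar4Parental, 4.62 in Ov4Cis and 5.43 in Ov4Carbo, with Ov4Carbo4 at 4.59 and Ov4Carbo7 at 5.29, the order of high and low lines seen for LRRC8D except that Ov4Carbo was below Ovcar4Parental.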

How the data were processed

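The authors deposited 1 table of log2 RPKM for 16604 genes in 15 samples, adjusted by conditional quantile normalization (cqn, for length and GC content) as its name states. Its name also mentions a threshold whose rule is not given in the sources used here. BWA 0.7.15-r1140, HTSeq and hg19 (GRCh37) are named in the submitters' processing notes. No counts were used, so depth and counting error are unknown, and quantile normalization hides differences in total RNA.

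All genes and samples were fitted with limma 3.58.1 in R 4.3.3, with 1 coefficient per line, and p-values were adjusted by Benjamini-Hochberg over all genes in each of 8 comparisons (two-sided). Tested on simulated data for Ov4Cis against Ovcar4Parental with 16604 genes, the fit recovered 67 of 100 changes of 1 log2 unit and 87 of 100 of 2, with 14 false calls. Far fewer genes were changed in the simulation than the 36.2% called in the data, and no title series effect was simulated. The recovered numbers are therefore not the power of the reported tests. Alternatives covered scaling, low values, samples fitted, title series, replicate block, threshold and each culture left out. Fits within a title series, and every title series value of a gene that is no carrier, were chosen after seeing the data. Plots were drawn with matplotlib 3.10.9 and tables written with pandas 2.3.3 under Python 3.11.15.

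The carriers and lists were chosen with earlier results of these data known. Named were all carriers, the listed genes changed by at least 1 log2 unit with a line mean of at least log2 RPKM 1 (at most 3 per comparison), and the 2 genes most like each carrier that changed by 1 unit. Outside that rule, SLC47A2, SLC22A4, SLC22A5, SLC22A15, LRRC8B, LRRC8E, COX11, CCS, MTF1 and TMEM205 were named after their values were seen. So were genes among the 2 nearest tested ones on each side of a carrier. Gene order and exon overlap came from GENCODE v29 (GRCh38), so no gene coordinates are given. RefSeq promoter windows matched 7 of the 10 symbols. They gave none for SLC31A2, SLC47A1 and SLC22A3.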

Additional observations from a re-analysis of the deposited data

Results flagged for a closer look

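ATP7B changed from Ovcar4Parental in opposite directions in the 2 clones of Ov4Carbo, and the direct test of the clones passed. The difference of Ov4Carbo7 from Ov4Carbo4 was -1.30 log2 units (limma adjusted p = 0.000244), with all 3 cultures of Ov4Carbo7 below all 3 of Ov4Carbo4. Both clones belong to the first title series, and within it the adjusted p was 0.0002. The 2 changes from Ovcar4Parental were less firm, at 0.58 (0.0437) in Ov4Carbo4 and -0.72 (0.0151) in Ov4Carbo7. The Ov4Carbo4 rise kept its call in 11 of 24 alternative settings and the Ov4Carbo7 fall in 20 of 24. With the series term they were 1.09 (0.0364) and -0.21 (0.689).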

How the results depend on the processing

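As reported, 44 of 72 carrier differences passed the test, and 20 of these 44 passed in every alternative run. Of 1830 alternative values for single carriers, 1712 kept direction and side of the threshold, 25 changed sign where neither value passed, 71 lost the call, 21 gained it and 1 reversed: LRRC8D in Ov4Carbo7 against Ovcar4Parental, at 1.06 with the title series term. With the title series term the count of changed carriers against Ovcar4Parental was 4 in Ov4Carbo, 2 in Ov4Carbo4 and 3 in Ov4Carbo7, and 4 for Ov4Carbo4 against Ov4Carbo. Restriction to the 12037 genes with a mean of at least log2 RPKM 1 left 6 of the 9 carriers to test. It gave 4 for Ov4Cis, 1 for Ov4Carbo, 4 for Ov4Carbo4 and 3 for Ov4Carbo7 against Ovcar4Parental, 5 between the clones and 3 for Ov4Cis against Ov4Carbo. An adjusted p under 0.01 gave 3 each for Ov4Cis and Ov4Carbo7 against Ovcar4Parental and for Ov4Cis against Ov4Carbo, and fitting only those last 2 lines gave 3. Apart from that restriction, which tests fewer carriers, the cause was not tested. Shares over all genes were not worked out for these settings or for the fits with a culture left out.

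Leaving out each culture in turn gave 4 to 8 carriers for Ov4Cis, 2 to 4 for Ov4Carbo, 6 to 7 for Ov4Carbo4 and 4 to 6 for Ov4Carbo7 against Ovcar4Parental. The ranges were 6 to 8 for Ov4Carbo4 and 3 to 5 for Ov4Carbo7 against Ov4Carbo, 7 to 8 between the clones and 3 to 5 between Ov4Cis and Ov4Carbo. All 9 carriers passed the F-test each time.

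The replicate numbers did not pair the cultures: in no comparison were all 3 correlations of same-numbered deviations over 0.1, and 0 to 3 of 6 cultures correlated best with their own number. With the replicate block the counts were 6 for Ov4Carbo4 against Ovcar4Parental (ATP7B lost, adjusted p = 0.069), 6 for Ov4Carbo4 against Ov4Carbo (LRRC8C lost, 0.0541) and 7 between the clones (SLC31A1 lost, 0.0506). The block changed no other call.

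Depth is unknown, so which low levels (SLC31A2, SLC47A1, ATP7B) are limited by few reads cannot be stated.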
